A study of Mus musculus with 2 samples.

Results

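Of 20207 genes in the deposited tables, 10 were taken by gene name that encode core parts of the machinery through which short hairpin RNAs and endogenous microRNAs act, and all 10 were found: Dgcr8, Xpo5, Dicer1, Tarbp2, Prkra, the Argonaute genes Ago1 to Ago4 (listed under the older names Eif2c1 to Eif2c4) and Tnrc6a. They were read in 2 RNA-seq libraries of embryoid bodies, suspension aggregates of differentiating mouse embryonic stem cells, collected on day 6. For the doxycycline library the differentiation medium held 2 ug/ml doxycycline from day 2, which induces short hairpin RNAs against the long noncoding RNA HoxBlinc. The library without doxycycline came from cells that carry the same inducible hairpins, uninduced. Each library pooled the RNA of 2 hairpins, so neither is a hairpin-free or non-targeting control, and doxycycline itself differs between them along with the hairpins. The growth protocol names the stem cell lines R1/E and CGR8 MHC-GFP without saying which gave a library. With 1 library per group there is no replicate check and no p-value. The level of HoxBlinc itself was not analysed here. Intervals are exact 95% intervals of counting error alone, and what is compared is the pair of libraries.

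A microRNA is transcribed as a long precursor that folds into a hairpin. The nuclear Microprocessor, made of the RNase Drosha and its RNA-binding partner Dgcr8, cuts the hairpin out, Exportin-5 (Xpo5) carries it to the cytoplasm, and the RNase Dicer1, with the double-stranded RNA binding proteins Tarbp2 and Prkra, trims it to a short duplex. An Argonaute protein keeps 1 strand as a guide, and its partner Tnrc6a recruits enzymes that shorten and degrade the target messenger RNA. Expressed short hairpin RNAs are exported, diced and loaded by the same proteins, with or without the Microprocessor step, depending on how the hairpin transcript is built.

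Gene counts summed to 24924921 in the doxycycline library and 37046449 in the library without it. Counts scaled by these totals (CPM) gave a median log2 ratio of -0.03 over 11063 measured genes, those with an RPKM (the authors' read count per gene length and library size) of at least 1 in the higher library. The deposited RPKM gave -0.18, its library denominators being other than these totals. Folds are therefore of CPM, with positions relative to the median of measured genes given as log2 differences, and comparisons between 2 genes as ratios of folds, which no scaling of the libraries changes. The 3 pluripotency markers Pou5f1, Nanog and Sox2 summed to 79.1 RPKM with and 108 RPKM without doxycycline, and 8 germ layer markers, all with reads in each library, to 14.5 RPKM with and 30.7 RPKM without. Of these 8, 6 were lower in CPM with doxycycline, 5 of them at least 2-fold lower on the (RPKM + 0.5) scale (Hand1, Kdr, Hnf4a, Gata6 and Pax6), and 1, T (brachyury), was at least 2-fold higher. Feeder fibroblasts supported the stem cells before differentiation. Of 10 fibroblast genes 9 were lower in CPM with doxycycline, and the sum of the 10 was 50.3 RPKM with and 93.3 RPKM without. Most of that sum was Col1a2 (29.95 RPKM with, 51.54 RPKM without) and Col1a1 (16.01 RPKM with, 26.23 RPKM without). Fap had 0 counts with and 1 without, Lum 2 with and 6 without, and Dcn, the 1 higher gene, 2 with and 1 without. These are too few counts to read a direction. Fewer cells of a type and less RNA per cell cannot be told apart in such samples, and the part of cell makeup in the values below was not tested.

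None of the measured RNA interference genes differed by 2-fold. On the (RPKM + 0.5) scale, 0 of 9 measured members were at least 2-fold higher, against 0.262% of all measured genes, and 0 were at least 2-fold lower, against 2.64%. At a smaller difference of 0.32 on the log2 scale, 0 were higher against 3.82% of all, and 2 were lower, Dgcr8 and Tarbp2, against 29.3% of all, so the 22.2% of members did not exceed the background. Centred on the median of all genes, 0 members were past 0.32 in either direction, against 10.6% higher and 12.9% lower of all. The median log2 ratio of the members was -0.10, beside -0.18 for all measured genes. In CPM, 3 of the 10 intervals lay above 1, 3 lay below 1 and 4, among them that of the unmeasured Ago4, included it. Over 10964 measured genes with equal coordinates in the tables, 28.6% lay above 1, 36.8% below and 34.7% included it.

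**Figure D1:**
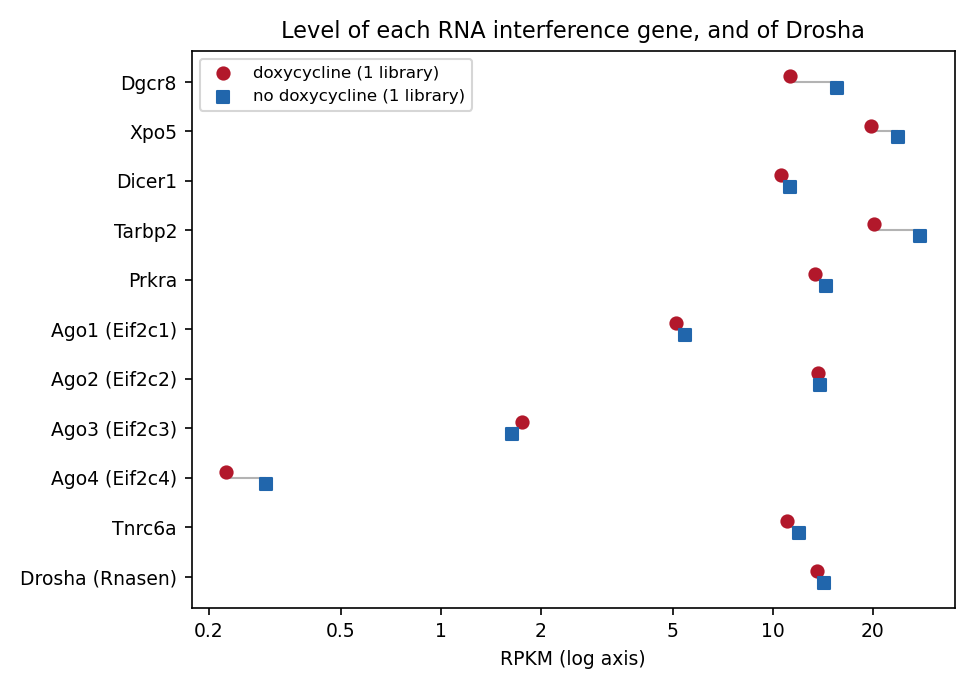
RPKM of the 10 RNA interference genes and of Drosha in the doxycycline library (red circles) and the library without doxycycline (blue squares), on a log axis, 1 library each. Tarbp2 and Xpo5 are highest in each library, and Ago4 stands alone at the low end at 0.2257 RPKM with and 0.2979 RPKM without doxycycline.

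Levels per length spanned a wide range and kept nearly the same order. With doxycycline Tarbp2 (20.16 RPKM) and Xpo5 (19.73 RPKM) led, followed by Ago2 (13.65), Prkra (13.43), Dgcr8 (11.3), Tnrc6a (11.01), Dicer1 (10.63), Ago1 (5.125), Ago3 (1.76) and Ago4 (0.2257 RPKM). Without doxycycline the order was Tarbp2 (27.8 RPKM), Xpo5 (23.9), Dgcr8 (15.61), Prkra (14.46), Ago2 (13.93), Tnrc6a (12.04), Dicer1 (11.25), Ago1 (5.435), Ago3 (1.639) and Ago4 (0.2979 RPKM). Dgcr8 thus stood at place 5 with and place 3 without doxycycline, but neither place was fixed within counting error. With doxycycline its interval (10.8 to 11.8 RPKM) overlapped those of Tnrc6a (10.7 to 11.3) and Dicer1 (10.3 to 10.9). Without doxycycline the Dgcr8 interval (15.1 to 16.1 RPKM) overlapped that of Prkra (13.7 to 15.2). Only against Ago2 did Dgcr8 change order beyond counting error (Ago2 13.2 to 14.2 RPKM with and 13.5 to 14.4 RPKM without). Within counting error, Tarbp2 and Xpo5 did not separate with doxycycline (19.2 to 21.2 and 19.1 to 20.4 RPKM) but did without it (26.8 to 28.8 and 23.3 to 24.5 RPKM, Tarbp2 first). The counting intervals of Ago2 and Prkra overlapped in each library. The range from lowest to highest member was 89.3-fold with and 93.3-fold without doxycycline, with Ago4 the lowest and Tarbp2 the highest in each.

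The Microprocessor subunits differed from each other. Dgcr8 (chromosome 16, 18254058 to 18289261; gene positions are on mm9), the subunit that recognises the hairpin, had 2206 counts with and 4040 without doxycycline, or 11.3 RPKM with and 15.61 RPKM without. Its CPM was 88.5 with and 109 without doxycycline, a fold of 0.812 (0.770 to 0.855), and the interval stayed below 1 with all counts halved (0.753 to 0.874). It lay 0.27 below the median of all genes on the log2 scale, and 18.5% of measured genes lay lower still. Drosha (listed as Rnasen, chromosome 15, 12754570 to 12865046), the RNase that cuts, had 2864 counts with and 3989 without doxycycline, or 13.57 RPKM with and 14.25 RPKM without, a CPM fold of 1.07 (1.02 to 1.12) that is below 1 in RPKM and whose interval included 1 with counts halved (0.997 to 1.14). The Dgcr8 fold was 0.761 times the Drosha fold (0.708 to 0.817, and 0.687 to 0.841 with counts halved). Per length there were 0.833 Dgcr8 for each Drosha with doxycycline and 1.10 without it.

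The Dgcr8 messenger is itself a known substrate of the Microprocessor, which cuts hairpins near its start, and for that reason these are shown here. RefSeq places 2 microRNA hairpins inside the gene, on GRCm38.p6, and both lie on the minus strand in exon 2 of its principal GENCODE transcript. Mir1306 (chr16:18284239-18284317) is in coding sequence, beginning 99 bases after the A of the start codon. The hairpin of miR-3618 (chr16:18284550-18284637, listed as Gm24572) is in the 5′ untranslated region and ends 134 bases before it. Of the other members Xpo5 alone holds a RefSeq hairpin, Mir693 in an intron. Capitals mark the mature arms in the hairpin, and the seed (bases 2 to 8) in the mature RNAs.
Mir1306 hairpin: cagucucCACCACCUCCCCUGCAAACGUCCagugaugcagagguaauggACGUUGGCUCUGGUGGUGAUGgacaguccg
mmu-miR-1306-5p: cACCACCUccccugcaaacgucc
mmu-miR-1306-3p: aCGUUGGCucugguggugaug
mmu-miR-3618-5p: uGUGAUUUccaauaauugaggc
mmu-miR-3618-3p: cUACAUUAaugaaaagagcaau
The 4 seeds differ from one another. The tables give 1 count per gene, so reads over these hairpins cannot be told from the rest of Dgcr8, and 0 genes named as microRNA genes were listed.

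Xpo5 (chromosome 17, 46339804 to 46379248) had 3382 counts with and 5432 without doxycycline, or 19.73 RPKM with and 23.9 RPKM without. The fold was 0.925 (0.886 to 0.966), lower beyond counting error, also with counts halved (0.870 to 0.984). With TMM scaling the fold was 0.967 and its interval included 1 (0.926 to 1.01), which ends that call. It lay 0.08 below the median of all genes on the log2 scale, inside their interquartile range of -0.22 to 0.15 in log2 CPM ratio. The Dgcr8 fold was 0.877 times the Xpo5 fold (0.819 to 0.939).

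At the dicing step Tarbp2 stood apart from Dicer1 and Prkra. Dicer1 (chromosome 12, 105925952 to 105990162) had 4841 counts with and 6788 without doxycycline, or 10.63 RPKM with and 11.25 RPKM without. Its CPM fold was 1.06 (1.02 to 1.10), which turned to 0.945 in RPKM and 0.803 in the authors' RMS-normalized RPKM, and it lay 0.11 above the median of all genes on the log2 scale. Prkra (chromosome 2, 76467994 to 76486051), known also as an activator of the kinase PKR, had 965 counts with and 1377 without doxycycline, or 13.43 RPKM with and 14.46 RPKM without. Its fold of 1.04 (0.958 to 1.13) did not differ from 1 within counting error, and relative to Dicer1 it was 0.983 (0.897 to 1.08).

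Tarbp2 (chromosome 15, 102348677 to 102354107), which hands the duplex from Dicer to an Argonaute and holds PKR in check, had 1618 counts with and 2957 without doxycycline, or 20.16 RPKM with and 27.8 RPKM without. The fold was 0.813 (0.765 to 0.864, and 0.746 to 0.887 with counts halved), 0.27 below the median of all genes on the log2 scale. Relative to Prkra, its relative in sequence and function, the Tarbp2 fold was 0.781 (0.704 to 0.866), and relative to Dicer1 it was 0.767 (0.714 to 0.824). Per length there were 1.50 Tarbp2 for each Prkra with doxycycline and 1.92 without it. The CPM folds of Dgcr8 and Tarbp2, the lowest of the measured members, did not differ from each other within counting error (ratio 0.998, 0.921 to 1.08). Centred within groups of genes of like GC content, described below, they did separate, at 0.804 (0.763 to 0.847) for Dgcr8 and 0.910 (0.856 to 0.968) for Tarbp2. So centred, Prkra was at 1.03 and Dicer1 at 1.05.

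The Dgcr8 and Tarbp2 promoters are shown because these genes had like CPM folds, before GC centring, and stood lowest. The 250 bases before each RefSeq start (GRCm38.p6) are printed with CCAAT, or ATTGG as it reads from the other strand, in capitals.
Dgcr8, chr16:18289169-18289418, minus strand: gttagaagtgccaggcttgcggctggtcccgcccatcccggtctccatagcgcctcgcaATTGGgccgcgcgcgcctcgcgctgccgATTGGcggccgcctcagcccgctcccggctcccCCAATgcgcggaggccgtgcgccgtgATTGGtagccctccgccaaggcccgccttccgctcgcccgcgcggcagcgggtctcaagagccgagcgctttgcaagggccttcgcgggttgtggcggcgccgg
Tarbp2, chr15:102517942-102518191, plus strand: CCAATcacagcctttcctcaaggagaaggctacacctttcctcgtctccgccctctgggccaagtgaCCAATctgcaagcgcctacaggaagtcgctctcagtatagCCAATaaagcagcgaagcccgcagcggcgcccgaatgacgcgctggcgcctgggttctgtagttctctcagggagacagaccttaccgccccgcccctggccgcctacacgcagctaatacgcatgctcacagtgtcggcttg
The Dgcr8 window holds 4 such matches and the Tarbp2 window 3, and so does that of Drosha, which was not lower in CPM. The window of Xpo5, whose CPM interval also lay below 1, holds 0. Of 32851 such windows over all genes, 33.8% hold at least 1 and 2.79% at least 3. Windows were given for 9 of the 10 members, and Ago1 had a pair of them. The Ago1 windows overlap and each hold 1 CCAAT and 2 GGGCGG matches, so Ago1 enters the next counts more than once. Of these 10 windows 5 held CCAAT and 9 held GGGCGG or its complement CCGCCC, which 32.7% of all windows hold. TATAAA or its complement TTTATA was in 0 of them, against 12.4% of all. Member windows ranged from 42.4% GC for Tnrc6a, alone under the all-window median of 52.4%, to 85.6% for Ago4. Dgcr8 was at 73.6% and Tarbp2 at 60%. The part of base composition in these matches was not tested. A match is a description of letters and says nothing of binding.

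**Figure D2:**
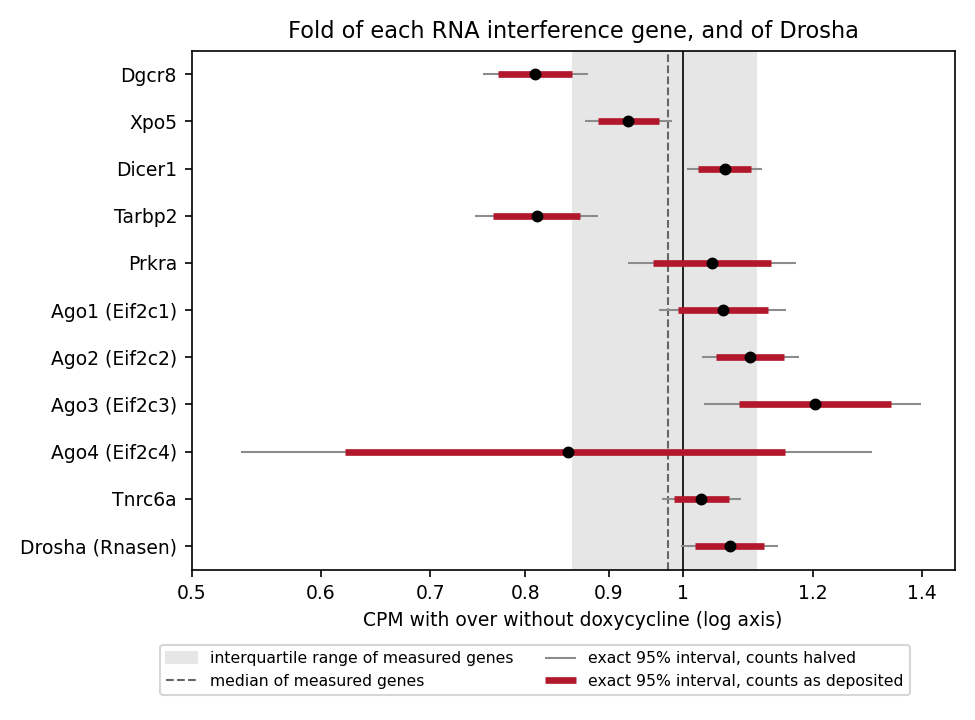
CPM with over without doxycycline for each RNA interference gene and Drosha, on a log axis, with exact 95% intervals of counting error from the counts as deposited (thick) and halved (thin), beside the median (dashed) and interquartile range (grey) of measured genes. Dgcr8 and Tarbp2 lie below the grey band at 0.812 and 0.813, and so does the unmeasured Ago4 at 0.849, with an interval that includes 1. Ago3 lies above the band at 1.20, though at 0.912 in RMS-normalized RPKM.

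The Argonautes hold the guide strand, and among them Ago2 is the known slicer of well-matched targets, such as those of a short hairpin RNA. Ago2 (chromosome 15, 72935378 to 73015365) had 2964 counts with and 4009 without doxycycline, or 13.65 RPKM with and 13.93 RPKM without. Its CPM fold of 1.10 (1.05 to 1.15) turned to 0.980 in RPKM and 0.833 in RMS-normalized RPKM, and it lay 0.17 above the median of all genes on the log2 scale. Ago1, Ago3 and Ago4 lie side by side on chromosome 4 (126017922 to 126210702, with 0 other tabled genes wholly inside).

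Ago1 (126112259 to 126145665) had 1673 counts with and 2352 without doxycycline, a fold of 1.06 (0.992 to 1.13). Ago3 (126017922 to 126106786) had 621 counts with and 767 without, or 1.76 RPKM with and 1.639 RPKM without, a CPM fold of 1.20 (1.08 to 1.34), the highest of the 10. It lay 0.29 above the median of all genes on the log2 scale, and 85.9% of measured genes lay lower, though on the RPKM scale its fold was 1.07 with an interval that included 1 (0.964 to 1.19), and in RMS-normalized RPKM it was 0.912. Ago4 (126166789 to 126210702) had 68 counts with and 119 without doxycycline. Its fold of 0.849 (0.621 to 1.15) did not differ from 1 within counting error, and at under 1 RPKM it was not among the measured genes.

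As a measure of background, 1231 genes of odorant and vomeronasal receptors averaged 0.00699 RPKM with and 0.0260 RPKM without doxycycline, so Ago4 stood above that level in each library. This background was not equal, as 73 of the 1231 had reads with and 652 without doxycycline. Its part in the folds of low genes such as Ago4 was not tested. Of the 3 neighbours on chromosome 4, Ago3 had the highest fold and Ago4 the lowest. The Ago3 fold was 1.14 times that of Ago1 (1.00 to 1.29), and that interval included 1 with counts halved (0.950 to 1.36). The Ago4 fold was 0.706 times that of Ago3 (0.506 to 0.978, and 0.435 to 1.12 halved).

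The make-up of the Argonaute pool was nearly the same. By summed RPKM Ago2 made up 65.7% with and 65.4% without doxycycline, Ago1 24.7% with and 25.5% without, Ago3 8.48% with and 7.69% without, and Ago4 1.09% with and 1.40% without. The 4 genes had 5326 counts in all with and 7247 without doxycycline, a CPM fold of 1.09 (1.05 to 1.13), and summed RPKM was 20.8 with and 21.3 without. Relative to Ago2, the folds of Ago1 (0.962, 0.889 to 1.04), Ago3 (1.10, 0.973 to 1.23) and Ago4 (0.773, 0.563 to 1.05) each had an interval that included 1.

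Tnrc6a (chromosome 7, 130267399 to 130338810), the GW182 protein that links Argonautes to the deadenylases, had 4315 counts with and 6254 without doxycycline, or 11.01 RPKM with and 12.04 RPKM without. Its fold of 1.03 (0.986 to 1.07) did not differ from 1 within counting error. Its paralogs stood on either side of it. Tnrc6b was at 4.344 RPKM with and 3.939 RPKM without doxycycline (fold 1.24, 1.18 to 1.29), and Tnrc6c at 4.959 RPKM with and 6.819 RPKM without (0.815, 0.772 to 0.861). The Tnrc6b fold was 1.52 times the Tnrc6c fold (1.41 to 1.63). Tnrc6a had 2.22 times the level of Tnrc6c per length with doxycycline and 1.77 times without it, and 2.53 times that of Tnrc6b with and 3.06 times without it.

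**Figure D3:**
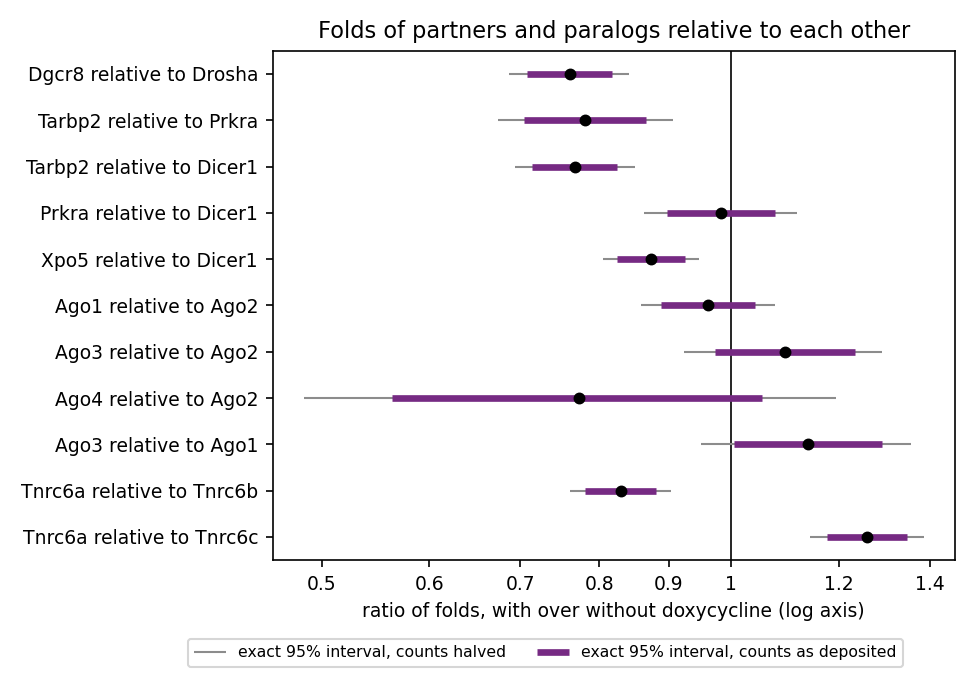
Ratios of the fold (with over without doxycycline) between partner and paralog genes, on a log axis, with exact 95% intervals from the counts as deposited (thick) and halved (thin). Dgcr8 relative to Drosha and Tarbp2 relative to Prkra or Dicer1 lie between 0.761 and 0.781, while each Argonaute relative to Ago2 has an interval that includes 1.

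Across all genes the fold went with base composition. The median log2 CPM ratio was 0.10 in the lowest and -0.23 in the highest of 10 equal groups, made of 10832 genes by the GC content of the longest coding transcript, with a Spearman coefficient of -0.32 across genes, which are not independent replicates. Ago3, with 41.8% GC the lowest of the measured members, had the highest fold, and Tarbp2, with 57.5%, one of the lowest. Relative to the median of genes of its own GC group, Ago3 lay 0.16 above and Tarbp2 0.13 below on the log2 scale. Ago2, with 48.9% GC, also lay 0.16 above the median of its group, and Ago1 lay 0.12 above. So centred, the folds of Ago3 (1.12) and Ago2 (1.12) were nearly equal, and the Tarbp2 fold was 0.910. Dgcr8, with 48.1% GC, lay 0.31 below its GC group, of which 13.3% of genes lay lower. The part of base composition in these values was not tested further.

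**Figure D4:**
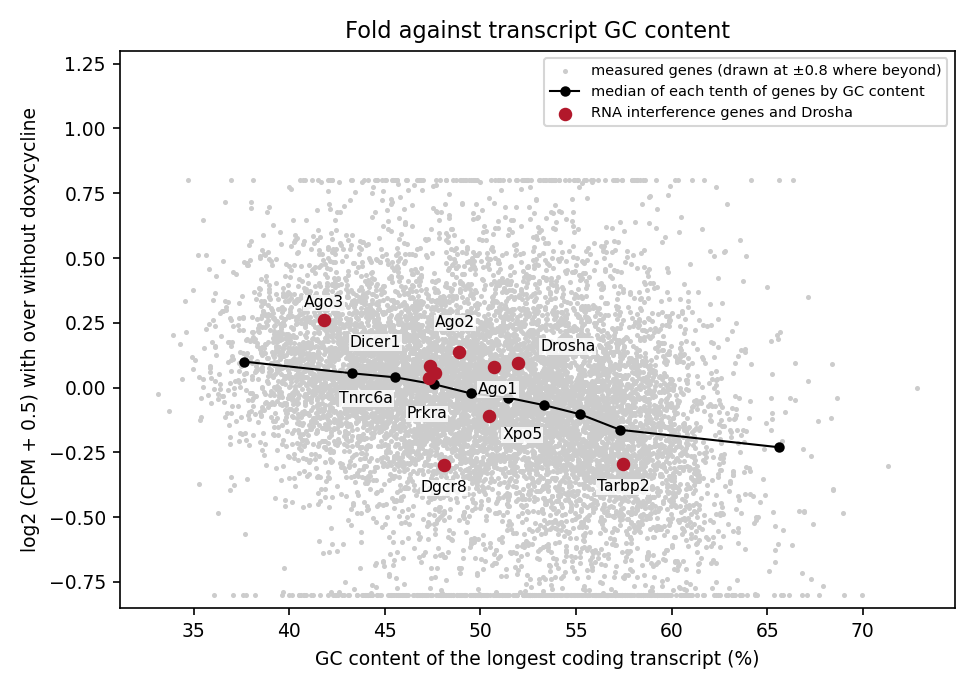
Log2 ratio of (CPM + 0.5) with over without doxycycline against the GC content of the longest coding transcript, for measured genes (grey), the medians of 10 groups of genes by GC content (black) and the 9 measured RNA interference genes and Drosha (red). The black line falls with GC content, Tarbp2 lies 0.13 below the median of its group, and Dgcr8 lies 0.31 below the median of its group.

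The wider pathway was read from 74 further genes in 6 roles, of which 71 were measured. None was past 2-fold in either direction (background 0.262% higher and 2.64% lower). At 0.32 on the log2 scale 0 were higher (background 3.82%) and 20 lower, a share of 28.2% against 29.3% of all measured genes. Centred on the median of all genes, 3 were higher (background 10.6%) and 4 lower (background 12.9%). Their median log2 ratio was -0.20, beside -0.18 for all.

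Of 8 Microprocessor genes, Drosha among them, 4 (50.0%, against 29.3% of all measured genes) were lower by that margin and 0 higher. Centred on the median of all genes, 1 was lower (background 12.9%). Hnrnpa1, a splicing regulator that also binds some microRNA hairpins, was at 13.31 RPKM with and 22.61 RPKM without doxycycline (fold 0.660, 0.616 to 0.707). It has many near-identical copies in the genome, so its counts are uncertain. Khsrp, a KH domain protein that aids processing of some precursors, was at 24.7 RPKM with and 33.57 RPKM without (0.825, 0.795 to 0.855). The RNA helicase Ddx5 stood at 143.6 RPKM with and 148.6 RPKM without doxycycline, so its CPM fold of 1.08 (1.07 to 1.10) was below 1 in RPKM.

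Xpo5 works with the GTPase Ran, and 2 of the 3 export genes (background 29.3%) were lower by that margin, and 1 when centred (background 12.9%). Rcc1, the exchange factor that loads Ran with GTP, was at 16.74 RPKM with and 26.02 RPKM without doxycycline (0.721, 0.680 to 0.764). Rangap1, which triggers its GTPase, had a fold of 0.791 (0.771 to 0.811). Ran itself, which has near-identical copies, had 192.7 RPKM with and 204.7 RPKM without doxycycline, a CPM fold of 1.06 (1.04 to 1.07) that is below 1 in RPKM.

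Of 19 Argonaute loading and partner genes 6 (31.6%, against 29.3% of all) passed the same margin downward and 0 upward. When centred, 1 was lower (background 12.9%). Fkbp4, a cochaperone of Hsp90, was at 137.3 RPKM with and 195.3 RPKM without doxycycline (0.788, 0.772 to 0.805), and Gemin4 at 8.474 RPKM with and 11.89 RPKM without (0.799, 0.747 to 0.854). Hsp90ab1, whose product opens Argonautes for the duplex, and which also has near-identical copies, was at 518.6 RPKM with and 582.2 RPKM without (0.999, 0.988 to 1.01).

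Among 29 silencing effectors 5 (17.2%, against 29.3% of all) were lower by that margin and 0 higher. Centred on the median of all genes, 0 were lower (background 12.9%) and 3 higher (background 10.6%). These 3, Patl1, Cnot6l and Pabpc1, were named after their values were seen. The decapping factor Dcp1b was at 2.071 RPKM with and 3.065 RPKM without doxycycline (0.758, 0.630 to 0.908), and Limd1, an Argonaute binding LIM protein, at 9.294 RPKM with and 12.85 RPKM without (0.811, 0.769 to 0.856). Patl1, a decapping activator, was at 4.276 RPKM with and 3.357 RPKM without (1.43, 1.30 to 1.57). The deadenylase Cnot6l was at 4.749 RPKM with and 3.761 RPKM without (1.42, 1.24 to 1.61), and the poly(A) binding protein gene Pabpc1, which has near-identical copies, at 148.1 RPKM with and 124.4 RPKM without (1.33, 1.31 to 1.36).

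Of 12 genes of microRNA regulation and turnover 3 (25.0%, against 29.3% of all) were lower by that margin and 0 higher. When centred, 1 was lower (background 12.9%). Adarb1, an RNA editing enzyme, was at 0.9173 RPKM with and 1.528 RPKM without doxycycline (0.673, 0.582 to 0.777). Lin28a (listed as Lin28), the stem cell protein that blocks let-7 maturation, was at 71.49 RPKM with and 93.13 RPKM without (0.861, 0.841 to 0.881), and its partner Zcchc11, which uridylates let-7 precursors, at 11.78 RPKM with and 10.94 RPKM without (1.21, 1.15 to 1.26). Germline Argonautes of the Piwi clade were below 1 RPKM. Piwil2 had 105 counts with and 263 without doxycycline (0.593, 0.469 to 0.747), while Piwil1 had 0 with and 1 without and Piwil4 0 with and 2 without, under the floor of 3 counts.

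**Figure D5:**
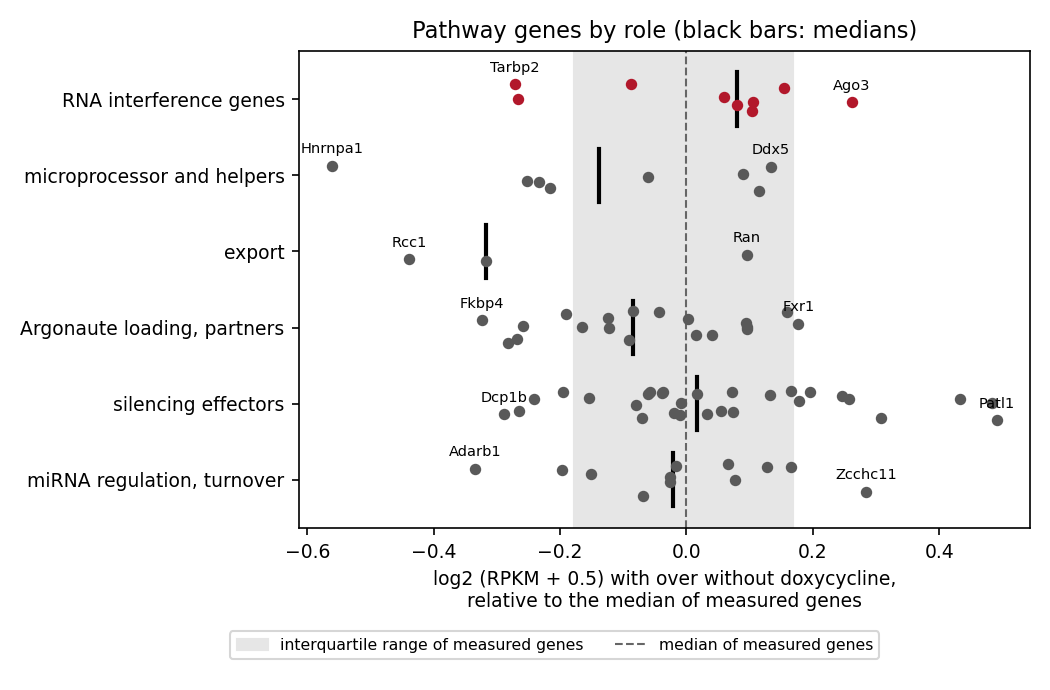
Log2 ratio of (RPKM + 0.5) with over without doxycycline, relative to the median of measured genes, for the 9 measured RNA interference genes (red) and 71 other pathway genes (grey) by role, with medians as black bars, the interquartile range of measured genes in grey, and the lowest and highest gene of each role named. The points of every role lie within 1 log2 unit of the dashed median line, and the member median stands at 0.08.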

How the data were processed

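Paired-end RNA-seq was done on total RNA, per the labels' protocols, and the submitters' processing notes name Bowtie2 and mm9. Not given in the sources used here: annotation, counting program and strandedness. The authors deposited an estimated count, an RPKM and an RMS-normalized RPKM (a signal relative to the library's root mean square RPKM) per gene, per the file headers. The authors also deposited a score, RPKM standardised over genes (Z-score), which entered no result. Library tables were joined by gene name, since the merged tables pair values by row. Genes with 2 counts outnumber those with 1 (603 to 296 with and 846 to 583 without doxycycline), so mates appear to be counted singly, and intervals are also given with counts halved. The largest deposited counts end in 0 and so are rounded.

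Folds of CPM carry Clopper-Pearson intervals of the conditional binomial share, counts being rounded to whole numbers. Ratios of folds are conditional odds ratios, and 18 pairs were compared. Counts of genes past a fold used log2(RPKM + 0.5), which understates differences of low genes. No member's coordinates differed between the library tables or overlapped another tabled gene. GC content came from GENCODE M21 (97.9% of measured genes), sequences from RefSeq on GRCm38.p6. No coordinates were converted. The members, lists and pairs were chosen with earlier results of these data known. From each role the 2 largest ratios and Drosha were named by rule, and other names were added after their values were seen. The rule used uncentred log2(RPKM + 0.5) ratios, whose median over all measured genes was -0.18, and picked only lower genes in each role. In CPM, Patl1 (1.43) and Cnot6l (1.42) lay further from 1 than Dcp1b (0.758) and Limd1 (0.811). Steps were tested on counts simulated with counting error alone, which is what the intervals assume. Mates counted singly and spread between replicate libraries were not simulated, so that test says nothing of them. Tools were Python 3.11.15, scipy 1.17.1 and edgeR 4.0.16 (TMM factors only).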

Additional observations from a re-analysis of the deposited data

How the results depend on the processing

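The folds of Dgcr8, Xpo5 and Tarbp2 stayed below 1 under all 10 alternatives tried, but with TMM the interval of Xpo5 (0.926 to 1.01) included 1. The 10 are not separate checks. Halved counts, and values side by side as the authors merged them, return the reported folds but for rounding. The implied denominators nearly repeat the ratio of RPKM. The fold of Dicer1 turned to 0.945 with the library denominators implied by RPKM and in the ratio of RPKM (0.945), and to 0.803 in RMS-normalized RPKM. That of Ago2 turned to 0.980, 0.980 and 0.833 under the same 3 settings, and that of Ago3 to 0.912 in RMS-normalized RPKM. Under the same 3 settings the folds whose intervals had included 1 also turned below 1 for Prkra (0.929, 0.929 and 0.789), Ago1 (0.943, 0.943 and 0.801) and Tnrc6a (0.915, 0.914 and 0.777). Against 3 member intervals above and 3 below 1, there were 0 above and 5 below with the implied denominators and with RPKM, and 0 and 9 with RMS-normalized RPKM. Intervals above 1 numbered 5 by upper quartile, 6 by TMM and 5 when centred on the median, with 3, 2 and 3 below 1 in that order. These settings multiply all folds by 1 constant, so ratios of folds do not depend on them. RMS-normalized RPKM moves the log2 fold of every gene by -0.40 relative to the totals, and the implied denominators by -0.17. Shares of all genes under these settings are not given here, so the interval counts are not results about the members. Centring within GC groups is not such a constant, and gave folds of 0.804 for Dgcr8 and 0.910 for Tarbp2.

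Past 0.32 on the log2 scale, members lower numbered 0 in CPM, 5 in RMS-normalized RPKM, 0 centred on the median and 0 centred within GC groups, a setting chosen after seeing the data. Their median log2 ratio was 0.058, -0.33, 0.080 and 0.034 in that order of settings. Centred on the median, 12.9% of all measured genes were lower by that margin and 10.6% higher. Such shares are not given here for CPM, RMS-normalized RPKM or GC groups, so counts under those settings are not results about these genes. Other pathway genes higher numbered 2 with a pseudocount of 0.1, 3 in CPM, 3 centred and 4 within GC groups. Those lower numbered 6 in CPM, 50 in RMS-normalized RPKM, 4 centred and 2 within GC groups, with medians of -0.049, -0.43, -0.019 and -0.044. By counts, not per length, the Argonaute shares with and without doxycycline were 31.4% and 32.5% for Ago1, 55.7% and 55.3% for Ago2, and 11.7% and 10.6% for Ago3. Of 100 member folds recomputed, 69 lay inside the counting interval of the reported fold, and 16, of 6 genes, changed side of 1. The 69 include the halved counts and the values as merged by the authors, which could not fall outside.

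No paired analysis was possible because each group has 1 library. Leaving out a library was not run for the same reason. Depth limits Ago4 most, with 68 counts with and 119 without doxycycline.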
